A study of Oryza sativa with 24 samples.

Results

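Gene expression after 24 h of cold was compared with that after 6 h of cold in rice seedlings of 7 accessions, with 1 array per accession and time. The comparison used 14 of the 24 arrays of the study, chosen by the time and accession in their labels, so that each accession supplied a pair. The study measured 8 accessions before cold, at 6 h and at 24 h on 1-colour Affymetrix arrays with biotin-labelled cRNA. The accessions compared were 9311, IRAT109, ZS97, Geng87-304, Youmangzaogeng, Muguanuo and Lixingeng, grown in potting soil to the stage with 4 leaves. Both groups were held at 4 °C under 14 h of light and 10 h of darkness and differed only in the labelled time in the chamber. Shoot and leaf tissue was labelled as the source of every RNA. MH63 was left out because its array labelled 24 h was taken to hold RNA signal of 2 accessions: of 276 pairs of arrays, that array and the array of Lixingeng before cold were the most alike, with a Spearman correlation of 0.992 over probe sets, against 0.981 for the next pair. The likeness does not show which of these 2 arrays is mixed, and neither is among the 14. Whether the RNA samples came from separate plants, pools or plantings is not in the labels, so the p-values measure only the spread between these samples, and the accessions stand as the replicates. The 6 h and 24 h arrays also differ in time of day. The only untreated array of each accession was that from before cold, so the cold times had no untreated array each. Between 6 h and 24 h, hours of cold and time of day therefore cannot be told apart.

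Rice is a warm-climate plant whose seedlings are injured by chilling. In plants, cold raises calcium in the cytosol within minutes, which is read by calmodulin-like proteins and by calcium-dependent and CBL-interacting kinases, and it induces the DREB1 (CBF) transcription factors within hours. Later layers include jasmonate and abscisic acid signalling, changes of the circadian clock, the making of protective sugars and the slowing of growth and greening.

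The 24 h and 6 h arrays differed at 14439 of 57258 probe sets (25.2%), of which 6460 were higher at 24 h (11.3%) and 7979 lower (13.9%). These calls came from a linear model in limma on log2(intensity + 32) with the accession as a block and an adjusted p under 0.05. Without the accession block 1831 were higher and 2413 lower. Most changes were small: 446 of the probe sets that passed were at least 2-fold higher (0.779%) and 206 at least 2-fold lower (0.360%), and the median change over all probe sets was 0.0042 on the log2 scale. Of 17905 genes with 1 representative probe set each, 2827 were higher (15.8%) and 4619 lower (25.8%), with a median change of -0.02. These gene shares are the background for every count of members below. The lists hold only genes with a name, and of those 2449 genes 448 were higher and 609 lower. The 14 arrays had median intensities from 41.7 to 46.4, and the number of arrays limits the precision. On 33223 probe sets no array of the 14 read above the fungal control probe sets on it, and 3730 of these passed the threshold. In bulk tissue, fewer cells of a type and less RNA per cell cannot be told apart.

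Signs of RNA quality moved with time in part. For the actin control, the 3′ over 5′ signal (log2) fell by 0.52 ± 0.42 (SD, n = 7) from 6 h to 24 h and was lower in 6 of 7 accessions (exact two-sided sign-flip permutation test, p = 0.0469, adjusted over 5 measures 0.0781). The EF1a control's value fell by 0.27 ± 0.20 and was lower in 7 of 7 accessions (exact p = 0.0156, the smallest that 7 pairs allow, adjusted 0.0781), whereas that of GAPDH differed by 0.12 ± 0.20 (exact p = 0.234). The 75th percentile of intensity fell by 3.63 ± 2.14 and was lower in 6 of 7 accessions (exact p = 0.0312, adjusted 0.0781). Their part in the results below was not tested. Leaf and shoot markers were bright: the summed intensity of 8 photosystem, light-harvesting and Rubisco genes ran from 38080.1 to 50339 at 6 h and from 34644 to 50802 at 24 h, and was lower at 24 h in 6 of 7 accessions. Of 9 genes preferentially expressed in roots, 4 were above the fungal controls on no array, namely TIP2-1, Lsi2, IRT1 and PHT1-6. The summed intensity of the 9 ran from 958 to 2684 at 6 h and from 562 to 1571 at 24 h, with overlapping ranges, and was lower at 24 h in 7 of 7 accessions. PIP2-5, NAAT1 and NIP2-1 of this list were each lower in 7 of 7, and NAS1, above the fungal controls on 3 of 14 arrays, was higher in 7 of 7. Their part in the results was not tested.

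Among the 2449 genes with a name, PCL1 and HSF03, both transcription factors, had the largest rises. Genes without a name are not described and some changed more: over all 17905 genes the changes ran from -2.23 to 3.90. Levels are intensities given as the lowest, the median and the highest of the 7 arrays, and changes are log2 differences with the SD over the 7 accessions. PCL1 (LOC4326391), the rice relative of the Arabidopsis clock factor LUX of the evening complex, read 146, 234 and 424 at 6 h and 894, 2611 and 3349 at 24 h. The 24 h arrays all lay above the 6 h arrays, and the gene rose by 3.12 ± 0.46 (adjusted p = 3.73e-08), which is 8.69-fold. The smallest of its 7 changes was 2.38 in 9311 and the largest 3.74 in IRAT109. HSF03 (LOC4324158), a heat stress transcription factor, read 96.5, 166 and 258 at 6 h and 479, 1259 and 1777 at 24 h, again without overlap of the groups. It rose by 2.67 ± 0.43 (adjusted p = 6.89e-08). Among the other transcription factors of the 15 largest rises of named genes, the NAC factor NAC068 read 92.7, 223 and 425 at 6 h and 598, 846 and 1804 at 24 h and rose by 2.01 ± 0.46 (adjusted p = 8.59e-07), with no overlap. WRKY24 rose by 1.80 ± 0.64 (adjusted p = 1.79e-05) and NIGT1, a nitrate-inducible GARP-type factor, rose by 1.84 ± 0.43 (adjusted p = 9.84e-07). A further heat stress factor, HSF09, rose by 1.73 ± 0.20 (adjusted p = 3.34e-08).

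Signalling genes formed the next group of large rises. ERG1, a small protein with a calcium-binding C2 domain, read 60.5, 169.6 and 859 at 6 h and 206, 933 and 2834 at 24 h and rose by 2.17 ± 0.67 (adjusted p = 6.04e-06). The groups overlapped, with IRAT109 the brightest and 9311 the dimmest at both times, and each accession rose. ACA7, which belongs to the calcium-pumping ATPases, rose by 2.02 ± 0.48 (adjusted p = 1.17e-06) and also overlapped between the times. CPK5, a calcium-dependent protein kinase, read 123, 175 and 192 at 6 h and 486, 678 and 845 at 24 h and rose by 1.89 ± 0.17 (adjusted p = 1.33e-08). The protein phosphatases 2C OsPP2C27 and OsPP2C47 rose by 1.93 ± 0.34 (adjusted p = 1.74e-07) and 1.80 ± 0.44 (adjusted p = 1.65e-06). In CPK5 and both phosphatases all 24 h arrays lay above all 6 h arrays.

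The remaining large rises were in metabolism and redox. RSH3, of the RelA/SpoT family that makes the alarmone ppGpp in plastids, read 388, 506 and 703 at 6 h and 1399.8, 1937 and 2293 at 24 h and rose by 1.81 ± 0.25 (adjusted p = 5.88e-08). RIBA2, an enzyme at the entry to riboflavin synthesis, rose by 1.77 ± 0.42 (adjusted p = 1.32e-06), and for both genes the groups did not overlap. GRXC15, a glutaredoxin, rose by 1.84 ± 0.58 (adjusted p = 7.82e-06), and TPP1, a trehalose-6-phosphate phosphatase, rose by 1.74 ± 0.44 (adjusted p = 2.07e-06), both with overlap. Of the 15 rises, 10 showed no overlap between the groups. Over all genes, 2.36% had every 24 h array above every 6 h array and 4.16% every one below, but the 15 were chosen by this same contrast, so nothing is read from their number. The plot of single accessions at both times shows the 6 largest rises and falls of named genes.

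**Figure D1:**
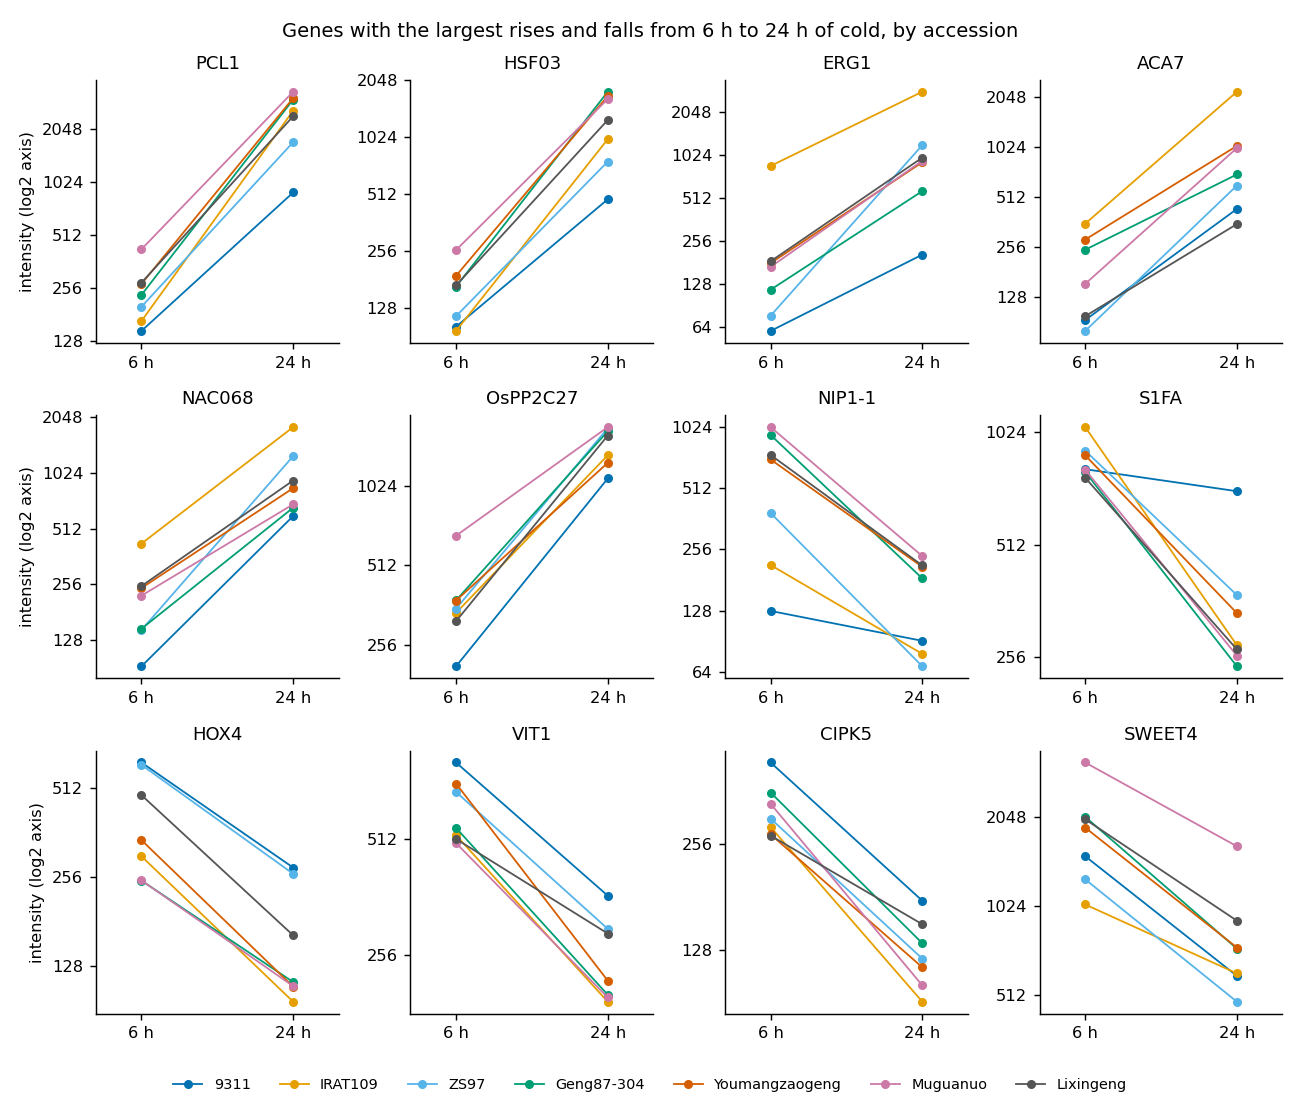
Intensity at 6 h and 24 h of cold on a log2 axis for the 6 named genes with the largest rises and the 6 with the largest falls, with 1 line per accession. All lines rise in PCL1, HSF03, ERG1, ACA7, NAC068 and OsPP2C27 and fall in NIP1-1, S1FA, HOX4, VIT1, CIPK5 and SWEET4, while the accessions start at different levels.

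Among named genes, the largest falls were smaller than the largest rises. NIP1-1 (LOC4328814), a membrane channel of the nodulin-26-like aquaporins, read 127.6, 709 and 1023 at 6 h and 68.1, 184 and 237 at 24 h. The groups overlapped, and the gene fell by 1.57 ± 0.63 (adjusted p = 4.22e-05). The water channels PIP2-4 and PIP2-5 of the plasma membrane fell by 1.13 ± 0.38 (adjusted p = 1.51e-05) and 1.10 ± 0.56 (adjusted p = 0.000285). VIT1, a vacuolar iron transporter, read 501, 548 and 811 at 6 h and 194, 220.1 and 366 at 24 h and fell by 1.19 ± 0.25 (adjusted p = 1.21e-06). SWEET4, a sugar transporter, fell by 1.16 ± 0.25 (adjusted p = 1.32e-06). These 5 of the 15 largest falls are in membrane transport, but the 15 were chosen by this same contrast. The share of transport genes among all named genes was not counted, so nothing is read from their number. Calls were lost with MH63 added for PIP2-4.

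Among regulators, S1FA, a small DNA-binding protein, read 773, 814 and 1055 at 6 h and 242, 276 and 711 at 24 h. All 24 h arrays lay below the 6 h arrays, and it fell by 1.30 ± 0.53 (adjusted p = 5.62e-05), and in 9311 the change was -0.19. HOX4, a homeodomain-leucine zipper factor, fell by 1.20 ± 0.20 (adjusted p = 3.32e-07), and CIPK5, a CBL-interacting kinase, fell by 1.17 ± 0.24 (adjusted p = 8.54e-07) with no overlap. LOGL9, of the enzymes that activate cytokinin, fell by 1.16 ± 0.34 (adjusted p = 6.85e-06). For the cell wall and cytoskeleton, the pectin methylesterase inhibitor PMEI8 fell by 1.14 ± 0.45 (adjusted p = 4.22e-05) and the actin-depolymerising factor ADF-11 fell by 1.12 ± 0.51 (adjusted p = 0.000127). PMEI8 was above the fungal controls on 5 of 14 arrays. OsTrx10, a thioredoxin, read 1809, 2196 and 2710.4 at 6 h and 756, 993 and 1343 at 24 h and fell by 1.10 ± 0.21 (adjusted p = 8.02e-07) with no overlap. The other members of the 15 were OST3 at a fall of 1.14 ± 0.10 (adjusted p = 4.46e-08), OsCASPL2C1, a CASP-like membrane protein, at 1.10 ± 0.32 (adjusted p = 7.2e-06), and ADIPOR1, named after the adiponectin receptors of animals, at 1.09 ± 0.30 (adjusted p = 5.3e-06). The groups did not overlap in 7 of the 15 falls. A call no longer held without the accession as a block for LOGL9, and with MH63 added for ADF-11.

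The 7 accessions moved alike but not equally. Over the 24035 probe sets above the fungal controls on at least 1 array, the changes of 2 accessions correlated with Pearson's r between 0.630 (9311 with Lixingeng) and 0.841 (Youmangzaogeng with Muguanuo), with a median of 0.761 over 21 pairs. This is a description across probe sets, which share arrays and base composition and are not independent. Among the same probe sets, IRAT109 had the most at least 2-fold higher, 694, and Lixingeng the fewest, 450. Those at least 2-fold lower ran from 129 in 9311 to 499 in Geng87-304. Each accession had 1 pair of arrays, and a difference between accessions was not tested.

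**Figure D2:**
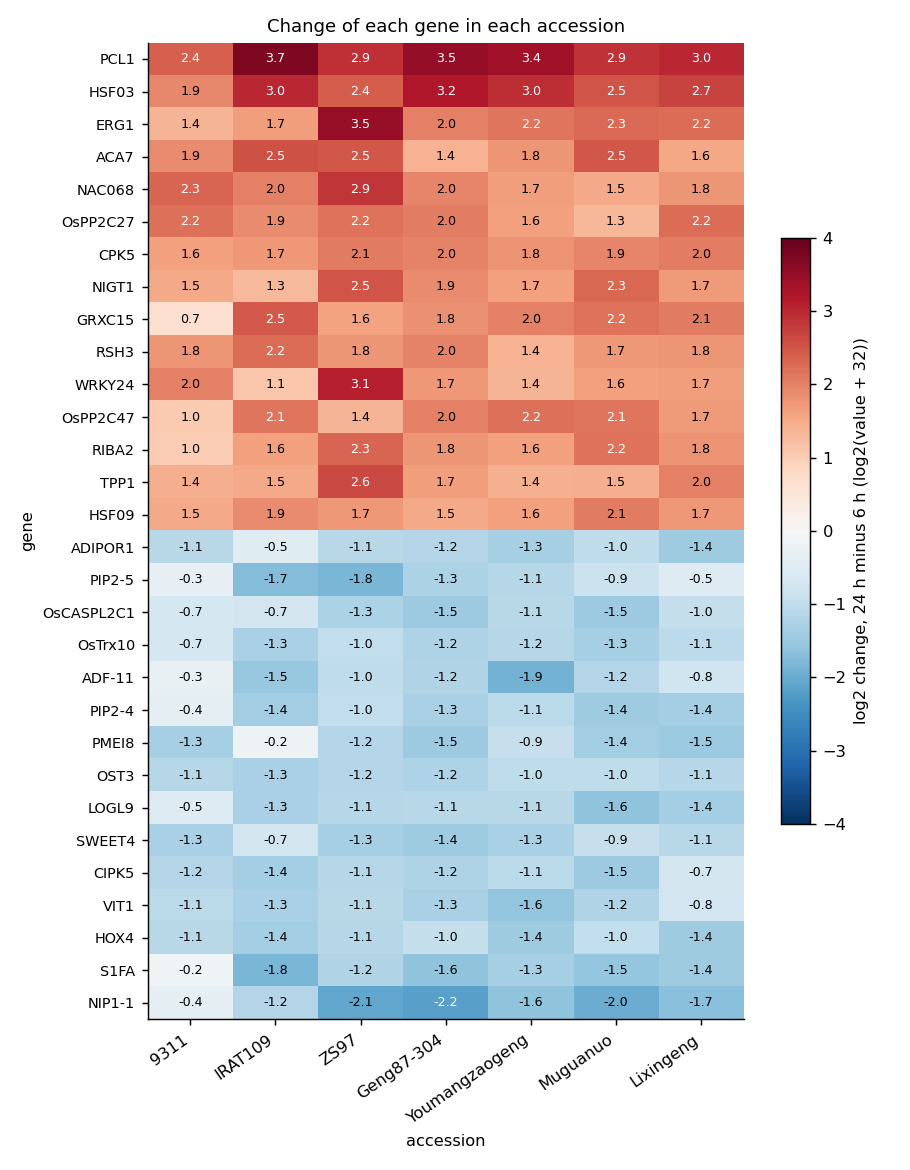
Log2 change from 6 h to 24 h of cold, 24 h minus 6 h, of the 15 named genes with the largest rises (upper rows) and the 15 with the largest falls (lower rows) in each of 7 accessions. Colour and printed value give the change, and every cell of a row has the same sign because the genes were chosen so. The column of 9311 holds weak falls, such as -0.19 for S1FA, and ZS97 the largest rise of ERG1, 3.50.

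The plot of gene lists gives the share of members that passed in each direction for 16 lists. These lists were picked for the plot after the values were seen, and so was the grouping of the JAZ repressors by themselves. Shares near 15.8% higher and 25.8% lower are those of all genes.

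**Figure D3:**
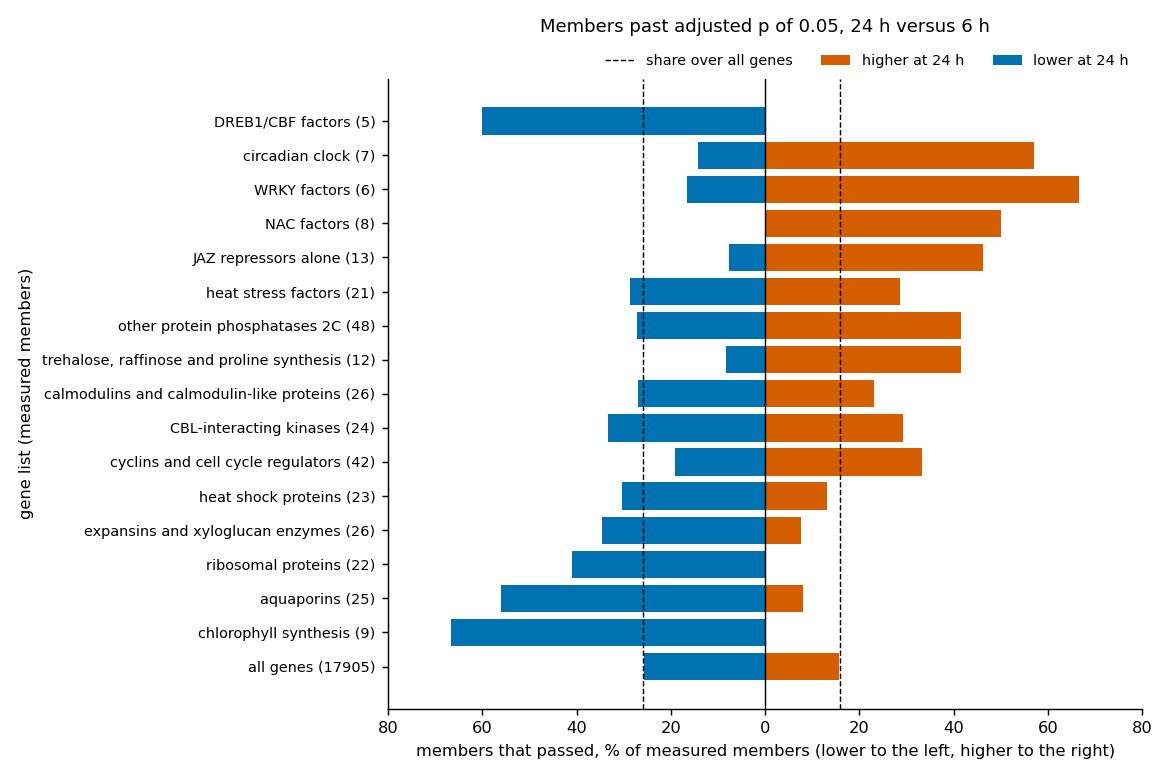
Share of the measured members of each gene list that passed as lower (left) or higher (right) at 24 h than at 6 h, in %, with the number of measured members in brackets and the shares over all genes as dashed lines. Chlorophyll synthesis, aquaporins and DREB1 factors lie mostly to the left, and WRKY, clock, NAC and JAZ genes mostly to the right.

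The DREB1 (CBF) factors, which bind the dehydration-responsive element and switch on cold-response genes, fell in part from 6 h to 24 h: 0 of 5 measured members passed as higher (0 at an unadjusted p under 0.05) and 3 as lower, with a median log2 change of -0.36 (0 and 1 without the accession block). DREB1G read 353, 575 and 726 at 6 h and 196, 353 and 519 at 24 h, overlapping between the times, and fell by 0.64 ± 0.41 (adjusted p = 0.00211), lower in 7 of 7 accessions. DREB1A read 2734, 4048 and 4602 at 6 h and 1849, 2339.5 and 4818 at 24 h. Its groups overlapped, since 9311 and ZS97 were higher at 24 h and the other 5 lower, and it fell by 0.50 ± 0.55 (adjusted p = 0.0306). DREB1E, the dimmest of the 3, fell by 0.36 ± 0.27 (adjusted p = 0.00583). DREB1B read 4126, 4969.6 and 5349.7 at 6 h and 3331, 4434 and 5781 at 24 h, differing by -0.09 ± 0.35 (adjusted p = 0.576) with 3 accessions higher and 4 lower. DREB1C was above the fungal controls on no array. The adjusted p rose above the threshold without the accession as a block for DREB1G and DREB1A, and in the fit of 22 arrays for DREB1A. Leaving out IRAT109, Geng87-304, Youmangzaogeng, Muguanuo or Lixingeng also ended the call of DREB1A, at -0.51 to -0.37.

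Levels before cold place these values. In a fit of 22 arrays without the array of MH63 at 24 h and that of Lixingeng before cold, 6.14% of genes were higher and 19.5% lower at 6 h than before cold. That comparison shares its 6 h arrays with the one described here, so the values are only given side by side. DREB1B, DREB1A and DREB1G stood 5.16 (adjusted p = 4.25e-11), 4.70 (adjusted p = 5.22e-09) and 2.97 (adjusted p = 5.29e-10) above their level before cold at 6 h. At 24 h versus before cold they stood at 5.10, 4.25 and 2.29.

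**Figure D4:**
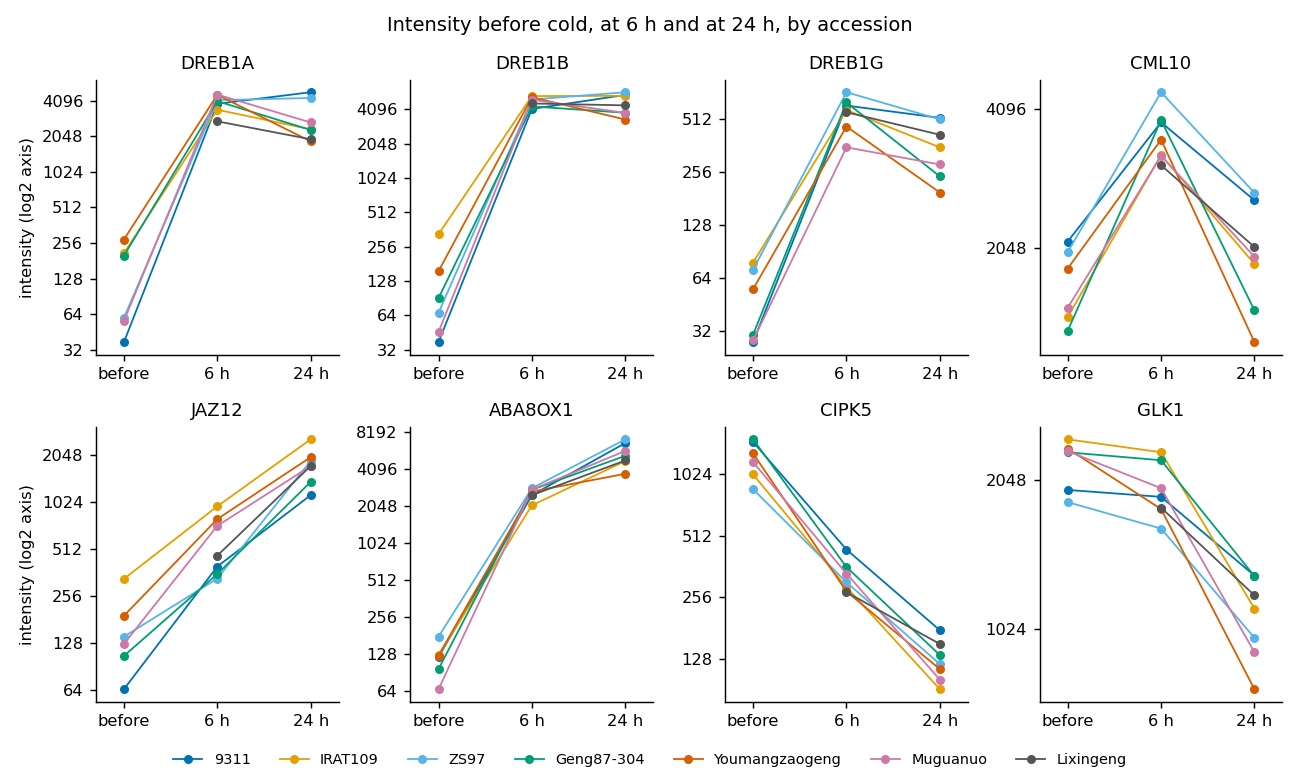
Intensity on a log2 axis before cold, at 6 h and at 24 h for 8 genes chosen after the values were seen, with 1 line per accession and no point for Lixingeng before cold. DREB1A, DREB1B and DREB1G are high at both cold times, CML10 is highest at 6 h, JAZ12 and ABA8OX1 climb at both steps, and CIPK5 and GLK1 decline.

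Several jasmonate genes rose. JAZ proteins repress jasmonate responses and are themselves induced by the hormone. Of the list of jasmonate synthesis genes and JAZ repressors, 12 of 27 measured members passed as higher and 4 as lower, with a median log2 change of 0.10 (3 and 3 without the accession block). Of the 13 JAZ genes alone, 6 were higher and 1 lower (3 and 0 without the accession block). JAZ12 read 330.3, 463 and 959 at 6 h and 1131, 1739.7 and 2579 at 24 h, with all 24 h arrays above the 6 h arrays, and rose by 1.64 ± 0.42 (adjusted p = 2.11e-06). JAZ6 read 656, 929 and 1406 at 6 h and 1434, 1942 and 3878 at 24 h, also without overlap, and rose by 1.26 ± 0.53 (adjusted p = 6.68e-05). JAZ11 read 128.4, 285 and 960.5 at 6 h and 371, 749 and 2924 at 24 h. It rose by 1.54 ± 0.37 (adjusted p = 1.54e-06) and rose in every accession, but the groups overlapped. CM-LOX1, a lipoxygenase named in this list, rose by 1.14 ± 0.33 (adjusted p = 7.52e-06). JAZ3 rose by 0.50 ± 0.13 (adjusted p = 5.7e-05). The threshold was missed without the accession as a block by CM-LOX1 and JAZ3.

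Other JAZ genes differed between accessions. JAZ10 rose by 0.63 ± 0.72 (adjusted p = 0.0374), from -0.26 in Youmangzaogeng to 1.93 in ZS97. A second probe set of JAZ10 was at 0.39 (above the fungal controls on 14 of 14 arrays) and passed too (adjusted p = 0.0253). JAZ13 differed by 0.47 ± 1.19 (adjusted p = 0.348) and JAZ9 by -0.04 ± 0.89 (adjusted p = 0.927). JAZ13 changed by 2.64 in ZS97, 1.04 in Lixingeng and 1.03 in 9311, but by -0.84 in Youmangzaogeng, and JAZ9 likewise ran from -0.92 in Muguanuo to 1.53 in ZS97. ZS97 had the highest change in each of the 3 genes. JAZ5, above the fungal controls on 3 of 14 arrays, rose by 0.20 ± 0.20 (adjusted p = 0.0375). JAZ4 fell by 0.27 ± 0.25 (adjusted p = 0.0225), while its second probe set was at -0.08 (above the fungal controls on 14 of 14 arrays) and did not pass (adjusted p = 0.287). JAZ7, JAZ1 and JAZ8 differed by -0.10 ± 0.12 (adjusted p = 0.21), -0.08 ± 0.15 (adjusted p = 0.325) and 0.06 ± 0.26 (adjusted p = 0.661), and JAZ2 was above the fungal controls on no array. Calls were lost without the accession as a block for JAZ10, JAZ5 and JAZ4, and with MH63 added for JAZ10 and JAZ5, and with array weights for JAZ10, and without a variance trend for JAZ10, and with equal medians for JAZ5. Leaving out 9311, IRAT109, ZS97, Geng87-304 or Lixingeng also ended the call of JAZ10, at 0.41 to 0.68. Leaving out IRAT109, ZS97, Geng87-304, Youmangzaogeng or Lixingeng also ended the call of JAZ5, at 0.15 to 0.21. Leaving out Geng87-304, Youmangzaogeng or Lixingeng also ended the call of JAZ4, at -0.26 to -0.20.

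**Figure D5:**
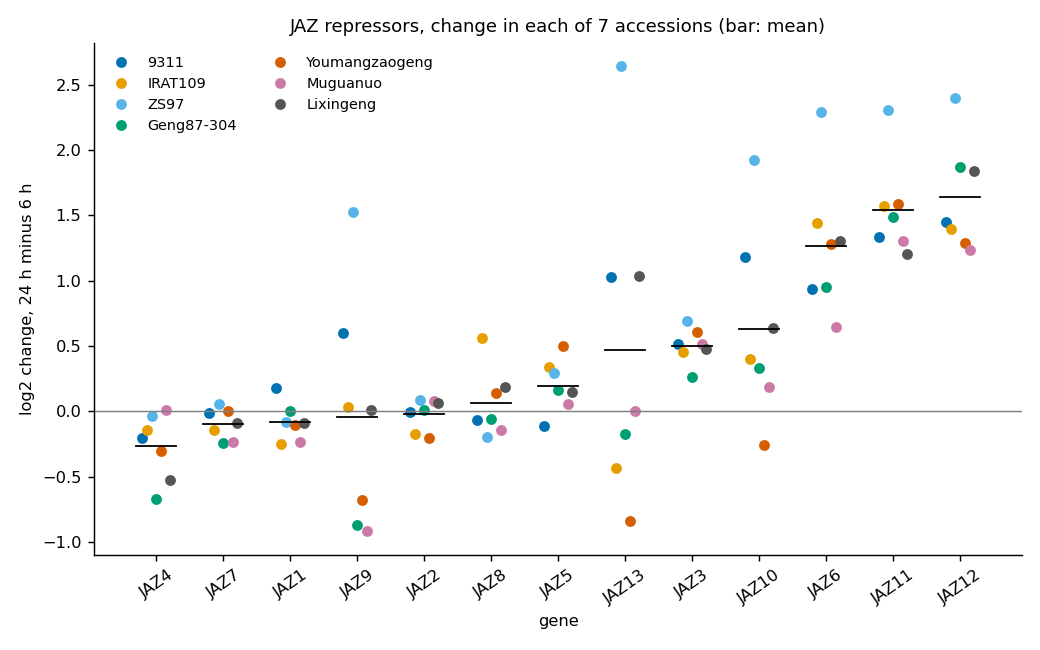
Log2 change from 6 h to 24 h of cold of 13 JAZ genes, with 1 point per accession and the mean as a bar. JAZ3, JAZ6, JAZ11 and JAZ12 lie above 0 in all 7 accessions, while JAZ9 and JAZ13 spread to both sides of 0 with ZS97 at the top.

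Genes of abscisic acid, a hormone of drought and cold, changed in part. ABA8OX1, an 8′-hydroxylase that breaks the hormone down, read 2079, 2692 and 2863 at 6 h and 3756, 5263 and 7159 at 24 h without overlap and rose by 1.04 ± 0.31 (adjusted p = 7.41e-06). At 6 h it already stood 4.07 (adjusted p = 1.92e-12) above its level before cold. ZEP, the zeaxanthin epoxidase of the synthesis route, rose by 0.17 ± 0.09 (adjusted p = 0.024), while ABA8OX2 and aba1 differed by -0.16 ± 0.15 (adjusted p = 0.0589) and -0.14 ± 0.10 (adjusted p = 0.0697). In all, 2 of 4 measured members passed as higher and 0 as lower (2 at an unadjusted p under 0.05), with a median log2 change of 0.02 (1 and 0 without the accession block). Of the clade A protein phosphatases 2C, co-receptors that act against the hormone's signal, 2 of 7 measured members passed as higher and 2 as lower, with a median log2 change of 0.09 (1 and 0 without the accession block). Over all genes 15.8% passed as higher and 25.8% as lower. PP2C30 read 199.5, 254 and 378 at 6 h and 322, 588 and 1497 at 24 h and rose by 1.07 ± 0.62 (adjusted p = 0.000742), and PP2C06 rose by 0.36 ± 0.19 (adjusted p = 0.00231), while OsPP2C09 fell by 0.33 ± 0.22 (adjusted p = 0.0067). PP2C53 fell by 0.15 ± 0.07 (adjusted p = 0.0295). A call no longer held without the accession as a block for ZEP, PP2C06, OsPP2C09 and PP2C53, and in the fit of 22 arrays for ZEP. That of PP2C53 was also lost with quantile normalization and with MH63 added. Leaving out Geng87-304, Muguanuo or Lixingeng also ended the call of ZEP, at 0.15 to 0.16. For PP2C53 the same held on leaving out 9311, ZS97, Geng87-304, Youmangzaogeng or Muguanuo.

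Of the other protein phosphatases 2C, which remove phosphate from serine and threonine, 20 of 48 measured members passed as higher and 13 as lower, with a median log2 change of 0.09 (7 and 6 without the accession block). The share higher, 20 of 48, stood above the 15.8% of all genes and above that of genes with a name, 448 of 2449. The share lower, 13 of 48, stands beside 25.8% of all genes and 609 of the 2449 with a name. The list was chosen with earlier results of these data known, so nothing is read from these shares. After OsPP2C27 and OsPP2C47, the largest rises were in OsPP2C32 at 1.21 ± 0.12 (adjusted p = 6.37e-08) and OsPP2C34 at 1.11 ± 0.11 (adjusted p = 1.08e-07). In OsPP2C34 all 24 h arrays lay above all 6 h arrays, which read 303, 434 and 539.5 at 6 h and 767, 905 and 1150.1 at 24 h.

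Among genes of the circadian clock, 4 of 7 measured members passed as higher and 1 as lower, with a median log2 change of 0.41 (3 and 0 without the accession block). PRR1, PRR95 and PRR37 are pseudo-response regulators, repressors that act in turn over the day. PRR1 read 81.1, 159 and 251 at 6 h and 161, 359 and 481 at 24 h and rose by 1.06 ± 0.33 (adjusted p = 1.14e-05), and PRR95 read 2051, 2852 and 4575 at 6 h and 3960.2, 5321 and 6125 at 24 h and rose by 0.85 ± 0.32 (adjusted p = 3.54e-05). In both the groups overlapped, though every accession was higher at 24 h. PRR37 rose by 0.41 ± 0.15 (adjusted p = 0.000392), and its second probe set differed by 0.13 (above the fungal controls on 14 of 14 arrays). LHY, a factor of the morning loop, fell by 0.17 ± 0.15 (adjusted p = 0.0425). GI and PRR73 differed by 0.12 ± 0.22 (adjusted p = 0.267) and -0.0041 ± 0.16 (adjusted p = 0.974). The part of the time of day cannot be told apart from that of the cold here. The adjusted p rose above the threshold without the accession as a block for PRR37 and LHY, and with MH63 added for PRR37. Leaving out IRAT109, ZS97, Geng87-304, Youmangzaogeng, Muguanuo or Lixingeng also ended the call of LHY, at -0.18 to -0.12.

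Calcium sensors rose and fell, as did all genes, of which 15.8% passed as higher and 25.8% as lower. Of the calmodulins and calmodulin-like proteins, 6 of 26 measured members passed as higher and 7 as lower, with a median log2 change of -0.02 (1 and 3 without the accession block), 1 of these calls being in a gene above the fungal controls on no array. CML16 read 2065, 4335 and 5196 at 6 h and 4574, 7063 and 7853 at 24 h, with overlap, and rose by 0.81 ± 0.22 (adjusted p = 5.98e-06). CML29 fell by 0.95 ± 0.14 (adjusted p = 6.34e-07) and CML8 fell by 0.62 ± 0.19 (adjusted p = 4.14e-05). CML10 read 3092, 3511 and 4443 at 6 h and 1285, 1964 and 2696 at 24 h, with all 24 h arrays below the 6 h arrays, and fell by 0.87 ± 0.36 (adjusted p = 7.92e-05). It had stood 1.04 (adjusted p = 8.72e-07) above its level before cold at 6 h. A second probe set of CML10 was above the fungal controls on no array and stood at -0.11 (adjusted p = 0.0499). Of the CBL-interacting kinases, which act with the calcineurin B-like calcium sensors, 7 of 24 measured members passed as higher and 8 as lower, with a median log2 change of -0.0039 (3 and 2 without the accession block), 1 of these calls being in a gene above the fungal controls on no array. CIPK14 rose by 1.35 ± 0.39 (adjusted p = 5.46e-06), CIPK19 rose by 0.88 ± 0.17 (adjusted p = 1.77e-06) and CIPK2 rose by 0.87 ± 0.19 (adjusted p = 2.78e-06), against the fall of CIPK5. The threshold was missed without the accession as a block by CML8.

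Stress transcription factors of other families mostly rose where they passed. Of the NAC factors, 4 of 8 measured members passed as higher and 0 as lower (0 at an unadjusted p under 0.05), with a median log2 change of 0.36 (2 and 0 without the accession block). NAC048 read 2857, 3663 and 3968 at 6 h and 5375, 6013 and 6494 at 24 h without overlap and rose by 0.76 ± 0.07 (adjusted p = 1.84e-07), and of its other 2 probe sets 1 stood at 0.57 (adjusted p = 0.00027) and 1, above the fungal controls on no array, at 0.04. NAC45 rose by 1.27 ± 0.43 (adjusted p = 1.54e-05) and NAC067 rose by 0.43 ± 0.26 (adjusted p = 0.00214). Of the WRKY factors, 4 of 6 measured members passed as higher and 1 as lower, with a median log2 change of 0.39 (2 and 0 without the accession block). WRKY71 rose by 0.64 ± 0.30 (adjusted p = 0.00022), with a second probe set at 1.50 (above the fungal controls on 11 of 14 arrays), and WRKY76 rose by 0.77 ± 0.81 (adjusted p = 0.0248), from -0.24 in 9311 to 2.02 in ZS97. WRKY51 fell by 0.28 ± 0.17 (adjusted p = 0.00249). WRKY9 passed as higher at only 0.14 ± 0.08 (adjusted p = 0.048). Its call was lost when any 1 accession was left out, with equal medians and without the accession as a block. Among DREB2 and ERF factors, 3 of 5 measured members passed as higher and 0 as lower (0 at an unadjusted p under 0.05), with a median log2 change of 0.10 (1 and 0 without the accession block), 1 of these calls being in a gene above the fungal controls on no array. DREB2B, a drought and heat relative of DREB1, read 143, 163 and 197 at 6 h and 398, 498 and 889.9 at 24 h with no overlap and rose by 1.47 ± 0.26 (adjusted p = 2.72e-07). DREB2A, DREB2D and ERF78 were above the fungal controls on no array, and DREB2D was 1 of the 3 that passed. Calls were lost without the accession as a block for NAC45, NAC067, WRKY76 and WRKY51, and with MH63 added for NAC067, WRKY76 and WRKY51, and in the fit of 22 arrays for NAC067. Leaving out ZS97, Youmangzaogeng or Lixingeng also ended the call of WRKY76, at 0.56 to 0.77.

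Heat stress factors rose in some cases and fell in others, beside 15.8% higher and 25.8% lower over all genes. Of the heat stress factors, 6 of 21 measured members passed as higher and 6 as lower, with a median log2 change of 0.05 (3 and 1 without the accession block), 3 of these calls being in genes above the fungal controls on no array. Beside HSF03 and HSF09, HSF07 read 113, 296 and 786 at 6 h and 549, 1043 and 1739.8 at 24 h and rose by 1.65 ± 0.37 (adjusted p = 1.03e-06), and HSF10 rose by 0.96 ± 0.26 (adjusted p = 6.46e-06). Of the heat shock proteins, chaperones that keep other proteins folded, 3 of 23 measured members passed as higher and 7 as lower, with a median log2 change of 0.01 (0 and 3 without the accession block), 2 of these calls being in genes above the fungal controls on no array. The gene named HSF11 is counted in this list and also among the heat stress factors. HSP82 read 1986, 2345 and 2859 at 6 h and 1065, 1331 and 1659 at 24 h, with no overlap, and fell by 0.86 ± 0.17 (adjusted p = 1.8e-06), and its second probe set stood at -0.42 (above the fungal controls on 14 of 14 arrays). HSP22.3 fell by 0.79 ± 0.19 (adjusted p = 3.33e-06) and HSP17.9B fell by 0.64 ± 0.37 (adjusted p = 0.000994). Among MYB factors, 2 of 10 measured members passed as higher and 3 as lower, with a median log2 change of -0.11 (2 and 0 without the accession block). MYBS3, a repressor linked to slow cold adaptation in rice, read 2505, 2818 and 3069 at 6 h and 3082, 3294 and 3799 at 24 h without overlap and rose by 0.26 ± 0.05 (adjusted p = 0.000628), with a second probe set at 0.08 (above the fungal controls on 13 of 14 arrays). MYBGA rose by 0.49 ± 0.14 (adjusted p = 4.71e-05), whereas MYBAS2 fell by 0.73 ± 0.38 (adjusted p = 0.00048). A call no longer held without the accession as a block for HSF10 and MYBAS2.

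Several genes of protective sugars and proline rose. Of trehalose, raffinose and proline synthesis genes, 5 of 12 measured members passed as higher and 1 as lower, with a median log2 change of 0.11 (2 and 0 without the accession block), 2 of these calls being in genes above the fungal controls on no array. TPP4, like TPP1 a trehalose-6-phosphate phosphatase, read 41.2, 45.2 and 50.05 at 6 h and 102, 126 and 235 at 24 h without overlap and rose by 1.15 ± 0.39 (adjusted p = 1.43e-05). RFS, a raffinose synthase, rose by 0.48 ± 0.16 (adjusted p = 0.000126), and P5CS1, of proline synthesis, rose by 0.27 ± 0.05 (adjusted p = 0.00126). LEA proteins and dehydrins protect dry or cold cells, and of these 2 of 8 measured members passed as higher and 0 as lower (0 at an unadjusted p under 0.05), with a median log2 change of 0.10 (1 and 0 without the accession block). Dhn1 read 618, 1192 and 1409 at 6 h and 988, 1862 and 2845 at 24 h and rose by 0.84 ± 0.26 (adjusted p = 1.55e-05), and its other probe sets, at 0.04 and 0.08, were above the fungal controls on 0 and 2 of 14 arrays. RAB21 differed by 0.25 ± 0.33 (adjusted p = 0.0929). Of sucrose and starch enzymes, 2 of 21 measured members passed as higher and 2 as lower, with a median log2 change of 0.03 (1 and 0 without the accession block), led by the α-amylase AMY1.3, which rose by 1.11 ± 0.40 (adjusted p = 1.79e-05) from a level near the array background and had a second probe set at 0.26 (above the fungal controls on no array). The adjusted p rose above the threshold without the accession as a block for RFS and P5CS1.

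Several genes of greening fell. Of chlorophyll synthesis genes and their GLK regulators, 0 of 9 measured members passed as higher (0 at an unadjusted p under 0.05) and 6 as lower, with a median log2 change of -0.35 (0 and 2 without the accession block). GLK1, a GARP factor that drives chloroplast genes, read 1630.3, 1889.5 and 2325 at 6 h and 773, 1124 and 1311 at 24 h, with no overlap, and fell by 0.84 ± 0.26 (adjusted p = 1.65e-05). PORA and PORB, the light-dependent protochlorophyllide oxidoreductases, fell by 0.87 ± 0.61 (adjusted p = 0.00252) and 0.73 ± 0.29 (adjusted p = 7.6e-05). PORB read 2393, 2637 and 3647 at 6 h and 1029, 1696 and 2442 at 24 h, and its groups overlapped. PORA was the exception in IRAT109, at 0.25. CHLH, a subunit of magnesium chelatase, fell by 0.51 ± 0.41 (adjusted p = 0.00742). A second probe set of CHLH, above the fungal controls on no array, stood at 0.13 and passed as higher (adjusted p = 0.0165). Of the photosystem, light-harvesting and Rubisco proteins, 0 of 8 measured members passed as higher (0 at an unadjusted p under 0.05) and 1 as lower, with a median log2 change of -0.05. The gene was PSAG, which fell by 0.72 ± 0.30 (adjusted p = 0.000109) and whose second probe set differed by 0.02 (above the fungal controls on 13 of 14 arrays). The threshold was missed without the accession as a block by PORA and CHLH.

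Some genes of ribosomal proteins and RNA helicases were lower. Of ribosomal proteins, 0 of 22 measured members passed as higher (0 at an unadjusted p under 0.05) and 9 as lower, with a median log2 change of -0.11 (0 and 2 without the accession block). Over all genes 25.8% passed as lower. Of those 17905 genes, 4936 were above the fungal controls on no array, against 1 of the 22 here. The 2 sets are thus unlike in brightness, and nothing is read from the difference of their shares. RPL18 fell by 0.52 ± 0.26 (adjusted p = 0.000514) and RPL39B fell by 0.40 ± 0.11 (adjusted p = 0.00018), the latter with a second probe set at -0.41 (above the fungal controls on 14 of 14 arrays). RPL39B read 1070.4, 1215 and 1479 at 6 h and 767, 970.3 and 1059.9 at 24 h, without overlap. Of the DEAD-box RNA helicases, which unwind RNA, 0 of 4 measured members passed as higher (0 at an unadjusted p under 0.05) and 3 as lower, with a median log2 change of -0.24 (0 and 1 without the accession block), with RH2 falling most. RH2 fell by 0.60 ± 0.23 (adjusted p = 0.000136). Calls were lost without the accession as a block for RPL18 and RH2.

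Genes of water transport and wall loosening were mostly lower where they passed. So were all genes, of which 15.8% passed as higher and 25.8% as lower. Of the aquaporins, 2 of 25 measured members passed as higher and 14 as lower, with a median log2 change of -0.19 (1 and 8 without the accession block), 1 of these calls being in a gene above the fungal controls on no array. The exception with the largest rise was TIP2-2, a channel of the vacuole membrane, which read 1331, 2498 and 3096 at 6 h and 3328, 4039 and 5339 at 24 h without overlap and rose by 0.80 ± 0.36 (adjusted p = 0.000142), the highest change being 1.58 in Muguanuo. Of the expansins and xyloglucan enzymes, which loosen walls in growth, 2 of 26 measured members passed as higher and 9 as lower, with a median log2 change of -0.06 (1 and 4 without the accession block). In that list 15 members were above the fungal controls on no array, and 3 of those passed. EXPA2 read 279, 396 and 659 at 6 h and 119, 182 and 265 at 24 h without overlap and fell by 1.04 ± 0.34 (adjusted p = 1.48e-05). XTH8 fell by 0.89 ± 0.35 (adjusted p = 6.28e-05), and EXPB4 and EXPB11 fell by 0.77 ± 0.56 (adjusted p = 0.00306) and 0.74 ± 0.43 (adjusted p = 0.000867). Of the cellulose synthase family, 5 of 29 measured members passed as higher and 3 as lower, with a median log2 change of -0.04 (0 and 2 without the accession block), 2 of these calls being in genes above the fungal controls on no array, and CSLH1 fell by 0.51 ± 0.11 (adjusted p = 2.27e-05). Both measured pectin methylesterase inhibitors passed, PMEI28 having risen by 1.06 ± 0.63 (adjusted p = 0.000838) and PMEI8 having fallen as given above. A call no longer held without the accession as a block for EXPB11 and PMEI28, and with MH63 added for EXPB4.

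Of the SWEET sugar transporters, 1 of 12 measured members passed as higher and 5 as lower, with a median log2 change of -0.13 (0 and 3 without the accession block). Beside SWEET4, SWEET1B read 434, 489 and 646 at 6 h and 168, 208 and 344 at 24 h without overlap and fell by 1.07 ± 0.33 (adjusted p = 1.19e-05). Of the metal transporters, 2 of 31 measured members passed as higher and 9 as lower, with a median log2 change of -0.03 (0 and 1 without the accession block), 1 of these calls being in a gene above the fungal controls on no array. ZIP1, a zinc transporter, fell by 0.63 ± 0.26 (adjusted p = 0.000114). Of the genes preferentially expressed in roots, 1 of 9 measured members passed as higher and 4 as lower, with a median log2 change of -0.11 (0 and 2 without the accession block), 1 of these calls being in a gene above the fungal controls on no array. Those lower were NAAT1, PIP2-5, NIP2-1 and IRT1, of which PIP2-5 and NIP2-1 are also in the aquaporin list. NAAT1, of the synthesis of iron-binding phytosiderophores, fell by 0.80 ± 0.26 (adjusted p = 2.59e-05). The adjusted p rose above the threshold without the accession as a block for ZIP1 and NAAT1.

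Genes of the cell cycle rose and fell, beside 15.8% higher and 25.8% lower over all genes. Of cyclins and cell cycle regulators, 14 of 42 measured members passed as higher and 8 as lower, with a median log2 change of 0.04 (4 and 3 without the accession block), 3 of these calls being in genes above the fungal controls on no array. CDKG-1 read 323, 362 and 566 at 6 h and 626, 872 and 1530.4 at 24 h without overlap and rose by 1.18 ± 0.17 (adjusted p = 2.5e-07), and a second probe set stood at 0.03 (above the fungal controls on no array). CDKB2-1, a kinase of the division phase, rose by 0.86 ± 0.11 (adjusted p = 1.81e-07), and the D-type cyclin CYCD6-1 rose by 0.78 ± 0.32 (adjusted p = 8.57e-05), both without overlap and both dim. Of the DNA replication factors, 3 of 28 measured members passed as higher and 8 as lower, with a median log2 change of -0.01 (2 and 3 without the accession block), 4 of these calls being in genes above the fungal controls on no array, and 14 of the 28 were above the fungal controls on no array. RPA14, a subunit of the single-strand binding protein, read 251, 552 and 702 at 6 h and 169, 296 and 334 at 24 h and fell by 0.80 ± 0.22 (adjusted p = 1.1e-05). PCNA, the sliding clamp, was above the fungal controls on 2 of 14 arrays and fell by 0.42 ± 0.16 (adjusted p = 0.000107). Of the tubulins, 1 of 9 measured members passed as higher and 1 as lower, with a median log2 change of -0.19 (1 and 0 without the accession block), and TUBB7 rose by 0.82 ± 0.17 (adjusted p = 2.61e-06), with a second probe set at 0.78 (above the fungal controls on 14 of 14 arrays). The threshold was missed with MH63 added by PCNA.

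Growth regulators of other hormones rose and fell, beside 15.8% higher and 25.8% lower over all genes. Of the Aux/IAA repressors, 6 of 26 measured members passed as higher and 5 as lower, with a median log2 change of 0.04 (3 and 1 without the accession block), 2 of these calls being in genes above the fungal controls on no array, and IAA6 rose by 0.69 ± 0.34 (adjusted p = 0.000361). Of the auxin response factors, 2 of 17 measured members passed as higher and 3 as lower, with a median log2 change of 0.02 (2 and 1 without the accession block). ARF10 read 476, 514 and 567 at 6 h and 745, 898 and 1029 at 24 h without overlap and rose by 0.74 ± 0.11 (adjusted p = 2.05e-06). ARF17 fell by 0.56 ± 0.22 (adjusted p = 0.000134), also without overlap, and the Aux/IAA gene IAA10 fell by 0.43 ± 0.19 (adjusted p = 0.000648). Of gibberellin genes, 3 of 6 measured members passed as higher and 1 as lower, with a median log2 change of 0.18 (1 and 0 without the accession block). SLR1, the DELLA repressor of growth, read 1027, 1091 and 1267 at 6 h and 1373, 1606 and 1942 at 24 h without overlap and rose by 0.49 ± 0.18 (adjusted p = 0.000163), and GA20OX2, which makes the active hormone's precursor, fell by 0.37 ± 0.23 (adjusted p = 0.00264). Calls were lost without the accession as a block for IAA6 and GA20OX2, and with MH63 added for GA20OX2.

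Zinc finger proteins gave calls in both directions, as did all genes, at 15.8% higher and 25.8% lower. Of the stress-associated zinc finger proteins, 5 of 13 measured members passed as higher and 1 as lower, with a median log2 change of 0.02 (2 and 1 without the accession block), and SAP11 rose by 0.59 ± 0.13 (adjusted p = 1.58e-05) without overlap. Of the CCCH zinc finger proteins, 10 of 50 measured members passed as higher and 11 as lower, with a median log2 change of 0.04 (2 and 6 without the accession block), 1 of these calls being in a gene above the fungal controls on no array. OsC3H3 rose by 1.14 ± 0.65 (adjusted p = 0.000598), rising in 6 of 7 accessions with 9311 at -0.32. Of the antioxidant enzymes, 1 of 13 measured members passed as higher and 2 as lower, with a median log2 change of 0.09 (0 and 0 without the accession block). Of the glutathione S-transferases, 1 of 6 measured members passed as higher and 0 as lower (0 at an unadjusted p under 0.05), with a median log2 change of 0.02, namely GSTU6, which rose by 0.62 ± 0.34 (adjusted p = 0.000869) and had a second probe set at 0.00049 (above the fungal controls on no array). The 1 alternative oxidase measured, AOX1, rose by 0.49 ± 0.21 (adjusted p = 0.000278). Of the phenylpropanoid and flavonoid enzymes, 0 of 8 measured members passed as higher (0 at an unadjusted p under 0.05) and 4 as lower, with a median log2 change of -0.17 (0 and 1 without the accession block), and Os4CL2 fell by 0.65 ± 0.37 (adjusted p = 0.000903). Of the U-box ubiquitin ligases, 1 of 7 measured members passed as higher and 2 as lower, with a median log2 change of 0.02 (0 and 1 without the accession block), and PUB4 fell by 0.39 ± 0.13 (adjusted p = 0.000449). A call no longer held without the accession as a block for OsC3H3 and AOX1.

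The 5 named genes whose change varied most between accessions were JAZ13, JAZ9, LTP110-A, GER8 and peroxidase. LTP110-A, a lipid transfer protein, changed by 1.70 in 9311 and by -1.35 in Geng87-304. GER8, a germin-like protein, changed by 1.40 and -1.35 in the same accessions, and the gene called peroxidase by 0.82 and -1.31. These 3 genes were higher at 24 h in 9311 and lower in Geng87-304. None of the 5 passed over the 7 accessions, and the accession difference itself was not tested.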

How the data were processed

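RNA of shoot and leaf was measured on 24 arrays. The deposited values are linear-scale intensity per probe set. How the authors summarised and scaled them, and with which software, is not given in the sources used here. From these values log2(value + 32) was computed without further normalization, and 123 control probe sets were left out. Of 57258 probe sets, the annotation paired 22436 with 1 gene and 95 with several, and named none for 34727. Names came from a RefSeq gene table, and 2449 of 17905 genes had one. Each gene was read from its brightest single-gene probe set (mean of the 14 arrays), with _x_at and _s_at probe sets set aside where it had another.

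Time was fitted with the accession as a block in limma 3.58.1 (R 4.3.3), with a variance trend and Benjamini-Hochberg adjustment over all 57258 probe sets. Tables and plots were made in Python 3.11.15. The pairing follows the labels: same-accession arrays correlated at 0.762 to 0.874 in their deviations, and different accessions at 0.500 at most. Background on an array was the highest of 10 Magnaporthe control probe sets. The model was tested on simulated data.

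Named genes were the 15 largest rises and 15 largest falls that passed in the same direction in 7 of 7 accessions above background, up to 4 members that passed of each list, every member of lists of 8 or fewer, the DREB1, JAZ and clock genes, and the 5 with the largest SD; not all are described. The members and lists were chosen with earlier results of these data known, and lists were changed to symbol patterns once the annotation was read. Alternatives were other offsets (16, 64), normalizations, a filter on low values, array weights, no block, no trend, MH63 added, 22 arrays and each accession left out. A planned search of promoters was not run.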

Additional observations from a re-analysis of the deposited data

Results flagged for a closer look

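In 18 of 226 values checked, the change of 1 accession stood so far from the other 6 that its gap to them exceeded Dixon's 95% critical value for 7 samples. Chance alone marks about 1 value in 20. ZS97 stood high in ERG1 at 3.50 in ZS97 (the other 6 between 1.37 and 2.26), JAZ11 at 2.31 in ZS97 (the other 6 between 1.20 and 1.59) and HSF10 at 1.49 in ZS97 (the other 6 between 0.75 and 1.02). IRAT109 stood apart in 5 genes: ADIPOR1 at -0.49 in IRAT109 (the other 6 between -1.42 and -1.02), OsPP2C09 at 0.11 in IRAT109 (the other 6 between -0.62 and -0.31), P5CS1 at 0.36 in IRAT109 (the other 6 between 0.23 and 0.28), DREB2B at 2.01 in IRAT109 (the other 6 between 1.24 and 1.51) and SPX2 at 0.64 in IRAT109 (the other 6 between 1.53 and 2.07). 9311 stood apart in S1FA at -0.19 in 9311 (the other 6 between -1.82 and -1.21), PIP2-4 at -0.37 in 9311 (the other 6 between -1.44 and -0.99), NAC010 at 0.70 in 9311 (the other 6 between -0.21 and 0.15), MYBAS2 at 0.0323 in 9311 (the other 6 between -1.06 and -0.61) and OsC3H3 at -0.32 in 9311 (the other 6 between 1.29 and 1.54). The other genes were EXPB11 at -1.59 in Geng87-304 (the other 6 between -0.85 and -0.30), TIP2-2 at 1.58 in Muguanuo (the other 6 between 0.54 and 0.78) and OsKO2 at -0.0366 in Youmangzaogeng (the other 6 between 0.09 and 0.18). NAC010 was above the fungal controls on no array. In 9311 the log2 3′ to 5′ ratio of the EF1a control changed by -0.69, against -0.35 to -0.11 in the other 6. The 75th percentile of the array's intensity changed by 0.77 in 9311 and by -5.35 to -2.89 in the others, and their part in the values of 9311 was not tested.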

How the results depend on the processing

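The counts of probe sets higher and lower at 24 h were recomputed under 17 other settings. They stayed within 1.5 times the reported 6460 and 7979 in 16 of them. Without the accession as a block 1831 were higher and 2413 lower, and all 4244 were among the 14439 with the same direction. Accession differences then enter the spread by the construction of that fit. With MH63 added 4497 were higher and 5695 lower. Leaving out 1 accession at a time gave 5144 to 6122 higher and 6639 to 8170 lower. Of 167 named genes that passed, 73 no longer passed without the block, 22 with MH63 added and 6 in the fit of 22 arrays. The fit with MH63 includes the 24 h array that was left out as mixed. A call lost there, here or in the paragraphs above, therefore says little about the gene itself. No named gene that passed changed direction in these settings, but for 14 with several probe sets the median over the probe sets differed from the reported change by more than the SD over accessions. The paired fit rests on the labels, and same-accession arrays correlated at 0.762 to 0.874 in their deviations from the time means. The actin 3′ to 5′ difference of -0.52 had the opposite sign in the GAPDH control, at 0.12, the cause of which was not tested, and ran from -0.62 to -0.43 when 1 accession was left out. Probe sets near the array background limit what can be seen: 58.0% were above the fungal controls on no array. Fold changes on log2(value + 32) understate changes of dim genes.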

Other observations

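The SPX genes, whose proteins sense phosphate through inositol pyrophosphates, rose from 6 h to 24 h. They were chosen after their values were seen, so their number is a description. SPX1 read 526, 626 and 987 at 6 h and 1148, 1854 and 2309 at 24 h, with all 24 h arrays above the 6 h arrays, and rose by 1.43 ± 0.26 (adjusted p = 3.9e-07). SPX2 read 203, 440.2 and 1298 at 6 h and 816, 1644 and 2044 at 24 h and rose by 1.61 ± 0.46 (adjusted p = 4.63e-06), with IRAT109 the lowest at 0.64. SPX5 rose by 1.48 ± 0.47 (adjusted p = 7.73e-06), and its second probe set stood at 1.66 (above the fungal controls on 7 of 14 arrays). SPX3 rose by 0.39 ± 0.29 (adjusted p = 0.00469) and SPX4 rose by 0.36 ± 0.13 (adjusted p = 0.000151). Both were read from dim probe sets, above the fungal controls on 1 and 2 of 14 arrays. A second probe set of SPX4, above the fungal controls on 14 of 14 arrays, stood at 0.22 (adjusted p = 0.0164). At 6 h versus before cold, SPX1 and SPX2 stood at 0.17 (adjusted p = 0.384) and -0.30 (adjusted p = 0.208). The adjusted p rose above the threshold without the accession as a block for SPX3.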
